A study of Homo sapiens with 27 samples.

Results

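Retained-intron transcripts are annotated models, most of them spliced in part, that are held to carry intron sequence of other transcripts of the same gene. In the 6 libraries of RM82 cells, 93530 transcripts were counted, of which 86362 were matched by identifier to GENCODE release 44, and 14678 of these belonged to the class retained_intron. The 2197 transcripts described here were chosen by a summed count of 20 or more over the 6 libraries, and they belonged to 1681 genes. Of them, 1774 transcripts in 1293 genes could be set against a coding partner, the protein_coding transcript of the gene with the most counts, where that transcript also reached 20 counts. The other 423 transcripts, in 388 genes, had no such partner.

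RM82 is an established line from an Ewing sarcoma, a bone and soft tissue tumour, and the compound SGC-CLK-1 is an inhibitor of CDC-like kinases. The 3 libraries labelled SGC-CLK-1 came from cells exposed to that compound for 24 h, and the 3 libraries labelled DMSO came from cells given the solvent for the same time. The counts were of unique molecular identifiers (UMIs) on oligo(dT)-primed full-length cDNA read on a nanopore sequencer, and totalled 666702, 362826 and 373004 (SGC-CLK-1, replicates 1 to 3) and 416352, 523456 and 372876 (DMSO). All 6 libraries were of 1 line, and no label says that replicates were separate cultures. The study states in general that its experiments were repeated independently, without naming these libraries, so p-values are read as measuring the spread between these libraries, which may be technical. Groups are named by their deposited labels throughout, since the counts of FRG2, at 64, 44 and 60 under the SGC-CLK-1 label and 96, 88 and 95 under the DMSO label, ran in the direction opposite to the study's own drawing of that gene. The other gene drawn there, TLE5, had 11, 8 and 7 against 10, 10 and 12 counts, which overlap and give no direction. An exchange of the labels would turn every sign given below. Of 10 genes listed as marks of Ewing sarcoma, 7 were at 10 or more CPM (counts scaled to a library of 1e6) over the libraries, among them CD99, CCND1 and STEAP1, while NKX2-2 was at 0 and NR0B1 at 7.37 CPM.

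Introns are removed by the spliceosome, which reads a GT at the start and an AG at the end of nearly every intron. SR proteins help it to find weak or distant sites, and CDC-like kinases phosphorylate the arginine-serine tails of SR proteins, which sets where these proteins sit and what they bind. Transcripts that keep an intron may wait in the nucleus, be spliced later or be destroyed, and the CLK genes themselves are known for introns that are held back.

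The ends of the lead introns are printed for transcripts that carry the main results, as the places where the coding partner is spliced. The models of STIP1, NUP98 and SRSF11 begin inside the intron, past the donor shown, and that of PCBP2 ends inside it, while the others hold it whole. Each window holds 30 bases of GRCh38 in the direction of transcription. In donor windows 10 exon bases come first and the first 6 intron bases are in capitals, and in acceptor windows the last 2 intron bases are in capitals and 3 exon bases follow.
STIP1 intron 10 donor (chr11:64200284-64200313, plus strand): ggcactcaagGTGACGagacctgtgggggc
STIP1 intron 10 acceptor (chr11:64202849-64202878): taatttctttctgttgcttcattctAGgac
NUP98 intron 25 donor (chr11:3699062-3699091, minus strand): cagcagtcagGTGGGGaaggcatatggtcc
NUP98 intron 25 acceptor (chr11:3695604-3695633): accaaaaaacttccatttctcttatAGggg
PWWP3A intron 2 donor (chr19:1357085-1357114, plus strand): tagaggaaaaGTTAAGtgttgtgttgtttt
EIF3B intron 7 donor (chr7:2366439-2366468, plus strand): ctatttttaaGTAAGTggaccattgtaacg
DDX3X intron 1 donor (chrX:41341607-41341636, plus strand): caaggggaagGTAAGTgatttcttaatcac
DDX3X intron 8 donor (chrX:41345315-41345344, plus strand): ggaaatacagGTACTGtttgatgttgcaaa
PCBP2 intron 10 donor (chr12:53467284-53467313, plus strand): ggattcagtgGTATGGatacctcagtgttt
PSMA1 intron 6 donor (chr11:14513797-14513826, minus strand): tggttatgatGTAAGTtcattgaatattgt
SRSF11 intron 3 donor (chr1:70228546-70228575, plus strand): tatgcagaagGTTTGTgctttgtttaacta
CLK4 intron 11 donor (chr5:178605283-178605312, minus strand): agaaaacaagGTATGTtttaagattcaaga
CLK4 intron 11 acceptor (chr5:178603932-178603961): atccagactttttttttttttctgtAGaaa

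Introns are numbered in the coding partner from its first. All donors shown open with GT and all acceptors close with AG, as did 99.1% of the 17446 introns of the coding partners. GTAAG or GTGAG, the letters searched for at the first 5 intron bases of the transcribed strand, stood in the donors of EIF3B, DDX3X intron 1 and PSMA1 and not in those of STIP1, NUP98, PWWP3A, DDX3X intron 8, PCBP2, SRSF11 and CLK4. Over all partner introns 50.8% held one of these 2 motifs, and over the lead introns of the 670 transcripts that kept a whole intron 52.4% did.

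Against their coding partners, 670 of the 1774 transcripts (37.8%) held at least 1 whole intron, 573 (32.3%) began inside an intron and 401 (22.6%) ended inside one. A further 51 held other intron sequence, 4 lay inside a single intron, and 75 held no sequence that was intronic in the partner. Of the 670, 463 held just 1 whole intron. The longest whole intron of each of the 670 had a median length of 660.5 bases and a median GC content of 44.4%, against 1437 bases and 40.9% for all partner introns. The lead intron of a transcript, meaning the longest whole intron it keeps or, if it keeps none whole, the one of which it holds the most, was the first intron in 153 transcripts, the last in 108 and a middle one in 1434. Among partner introns 7.36% were first and 7.36% last, against 8.62% and 6.09% of the transcripts. The median length was 2339 bases, and a median of 54.3% of a transcript's bases lay in exons of the partner.

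The 3′ end fell in the partner's last exon in 996 transcripts (56.1%), in an intron in 494 (27.8%), in an earlier exon in 117 and outside the partner in 167. The 4484 retained-intron transcripts of the same genes that stayed under 20 counts ended less often in the last exon (28.1%) and had a median length of 806 bases. These shares describe annotated models, and the count minimum was part of the choice. A poly(A) signal, AATAAA or ATTAAA in the last 50 bases, was present in 65.9% of transcripts with an end in the last exon, in 14.4% of those with an end in an intron, and in 80.7% of the coding partners.

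Because cDNA was primed with oligo(dT), the genome just past each annotated end was read as well. In 225 of the 1774 transcripts (12.7%), 12 or more of the next 20 bases were A. The share was 22.5% for ends in an intron, 8.53% for ends in the last exon, 4.91% for the retained-intron transcripts under 20 counts and 1.16% for the coding partners. The part of internal priming in any count was not tested. The 2 kinds of end are shown by 3 A-rich ones, with the 20 bases past the end in capitals, and 2 with a poly(A) signal in capitals inside the last 30 bases.
HNRNPU ENST00000639667, ending in intron sequence (chr1:244857242-244857271, minus strand): tccgtctcagAAAAAAAAAAAAAAGAAAAG
CTNNB1 ENST00000645763 (chr3:41237427-41237456, plus strand): acagagccagACTCCAACACAAAAAAAAAA
PNISR ENST00000478777 (chr6:99401441-99401470, minus strand): aaaagagcatAAAGAAAAAGAAAAACAAGG
NUTF2 ENST00000587481 (chr16:67872538-67872567, plus strand): aactgtctgcAATAAAgaagaatttgtaaa
SRSF11 ENST00000484162 (chr1:70251968-70251997, plus strand): ttacaagactttgatAATAAAacccttaaa

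**Figure D1:**
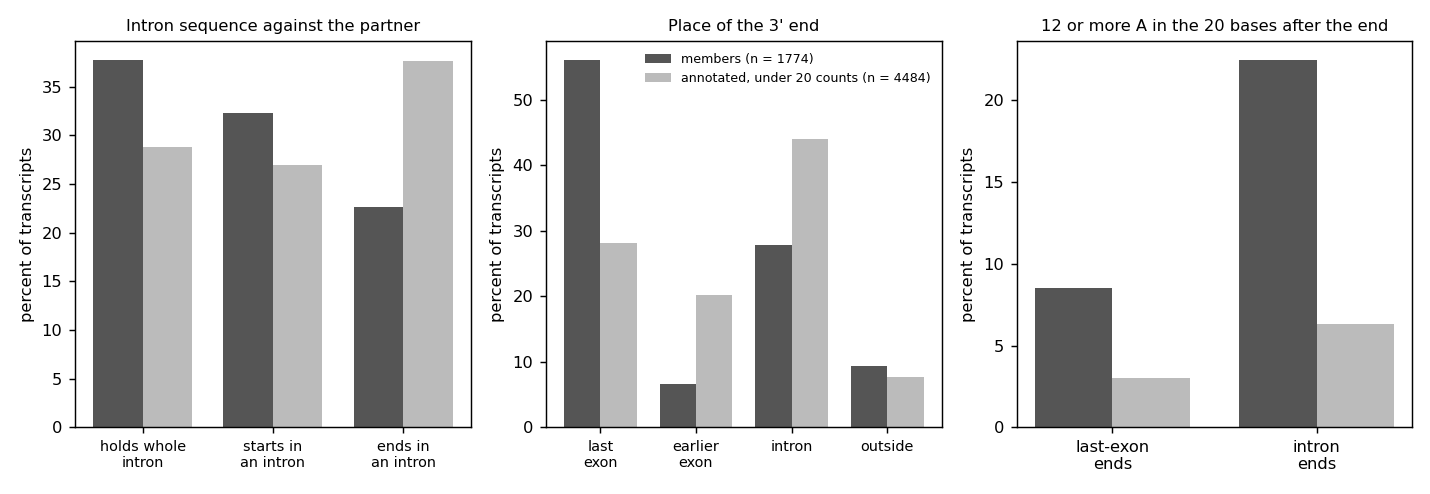
Percent of retained-intron transcripts by the intron sequence they hold against their coding partner (left), by the place of their 3′ end (middle), and with 12 or more A in the next 20 bases by place of the end (right). Dark bars are the 1774 transcripts with 20 or more counts and a partner, light bars the 4484 of the same genes below that count, and dark bars are higher for ends in the last exon (56.1% against 28.1%) and lower for ends in an intron (27.8% against 44%).

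The share of each library's counts that fell on the 2197 transcripts was 6.57%, 6.58% and 6.58% under SGC-CLK-1 and 6.64%, 6.79% and 6.72% under DMSO. Every library labelled SGC-CLK-1 lay below every library labelled DMSO, and the difference in means was -0.14 percentage points (6.57% ± 0.00788 against 6.71% ± 0.0751, SD, n = 3, exact two-sided permutation test, p = 0.1). A p of 0.1 is the smallest that 3 against 3 libraries allow. The coding partners lay in the same order and further apart, with 9.96%, 9.89% and 10.0% against 10.3%, 10.3% and 10.6%, and their means differed by -0.42 percentage points (p = 0.1 in the same exact test). The 12481 rarer retained-intron transcripts went the other way, with 2.24%, 2.26% and 2.22% against 2.0%, 2.0% and 1.84% of the counts. With them included, the class as a whole held 8.81% ± 0.0233 against 8.66% ± 0.116 (SD, n = 3, exact permutation test, p = 0.1). Rare transcripts of other classes showed the same order, since protein_coding transcripts under 20 counts held 6.96% ± 0.128 against 6.08% ± 0.233 and all classes under 20 counts 13.8% ± 0.235 against 12% ± 0.454. The sign of a retained-intron share in these libraries therefore turned on the count minimum.

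**Figure D2:**
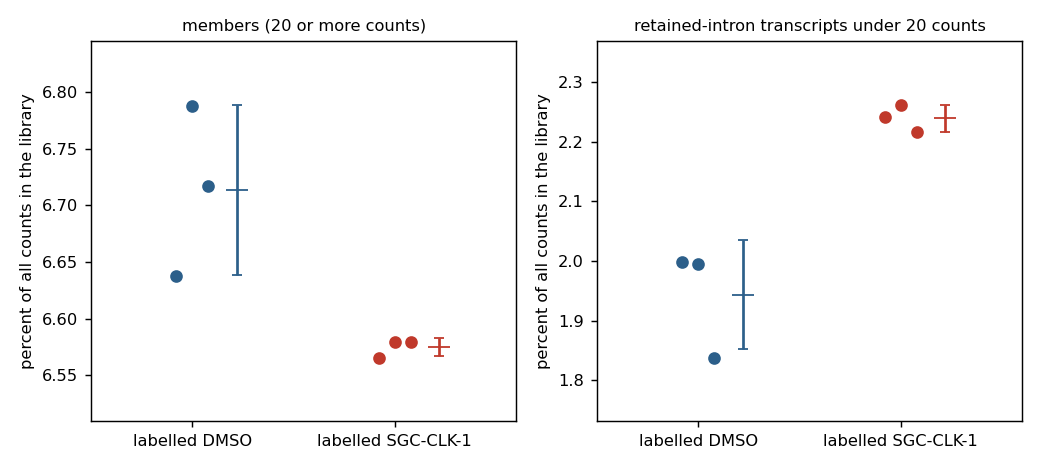
Percent of all counts in each library (points, with the mean and SD of 3 libraries beside them) on the 2197 retained-intron transcripts with 20 or more counts (left) and on the 12481 with fewer (right). The vertical axes do not start at 0, and the 2 groups do not overlap in either panel but lie in opposite order, at 6.57% against 6.71% and at 2.24% against 1.94%.

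For each of the 1293 genes with a partner, the counts of its retained-intron transcripts were summed, divided by the count of the partner and compared between the labels. The median gene had a ratio of 66.7% over all libraries (quartiles 30.0% and 109%), and in 363 genes the retained-intron class outnumbered the most counted coding transcript. In edgeR's quasi-likelihood test, with library and transcript kind as terms, no gene passed an adjusted p of 0.05, as none of all 7032 ratios of gene and class did (0% called). The smallest adjusted p was 0.099. An unadjusted p under 0.05 was reached by 84 genes (6.50%), against 3.47% of all 7032 ratios, 3.26% of the 1257 ratios of nonsense-mediated decay transcripts, 1.78% of the 3710 ratios of other coding transcripts and 6.87% of the 772 ratios of all remaining classes. Of the 84, 46 had a lower and 38 a higher ratio with the SGC-CLK-1 label. The 3 ratios of one group lay wholly above those of the other in 206 genes (15.9%), against 12% of all ratios and 14.1% of those of the remaining classes, with 105 lower and 101 higher. The median log2 change was -0.00066 (quartiles -0.33 and 0.31), with 653 genes below and 640 above 0, and over all ratios the median was 1.88e-15. The data thus showed no shift of the class in one direction.

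Other fits called between 0 and 3. limma-trend on the log2 ratios also called 0 retained-intron ratios (168 at an unadjusted p under 0.05), but edgeR's diffSpliceDGE, which sets each transcript against its gene and was added after the data were seen, called 3 of 480 retained-intron transcripts, against 0.108% of all 5531 transcripts. These were ENST00000355603 of STIP1 (adjusted p = 2.4e-06 by edgeR), ENST00000488828 of NUP98 (0.0033) and ENST00000547987 of PCBP2 (0.012). A fit on the 1293 retained-intron ratios alone, also added afterwards, called PSMA1 and PWWP3A (both at an adjusted p of 0.034 by edgeR). The PSMA1 transcript reached 20 counts only through the libraries labelled SGC-CLK-1, and so did the partner of PWWP3A. The NUP98 transcript, with 6, 3 and 2 against 16, 16 and 10 counts, reached 20 only through the libraries labelled DMSO. That of PCBP2, with 39, 16 and 12 against 5, 9 and 1, did so only through those labelled SGC-CLK-1. Apart from that of STIP1, these calls were thus favoured by the count minimum and support nothing here. In simulated counts with 200 ratios changed by a fold of 4, the main test recovered 45.5% of them.

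By rule, the 10 genes with the smallest p in each direction among those whose ratios did not overlap were named, and as no adjusted p was below 0.05 their values are given without a call. Each SE is the size of the log2 change divided by the square root of the test's F statistic. At low counts it can be smaller than the counting error. STIP1, a co-chaperone that links HSP70 to HSP90, had 27, 18 and 11 counts on its retained-intron transcript under the SGC-CLK-1 label and 138, 159 and 176 under DMSO. Its coding partner had 145, 68 and 87 against 101, 130 and 69. The ratio was 18.9%, 27% and 13.1% against 136%, 122% and 254%, so the highest of one group lay far below the lowest of the other, and the log2 change was -3.07 (SE 0.42, adjusted p = 0.39 by edgeR). The transcript is 528 bases long, begins in intron 10 of 13 and ends in an earlier exon of the partner.

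NUP98, a nucleoporin, had 6, 3 and 2 retained-intron counts against 16, 16 and 10, while its partner had 26, 13 and 18 against 12, 11 and 11. Retained-intron and coding counts thus lay in opposite order, with ratios of 24.5%, 25.9% and 13.5% against 132%, 143% and 91.3% and a log2 change of -2.64 (SE 0.30, adjusted p = 0.34 by edgeR). This transcript too begins in an intron, number 25 of 32, and ends in an earlier exon.

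CTNNB1, which encodes β-catenin, had 4 retained-intron transcripts whose counts together were 26, 18 and 17 against 98, 77 and 157. The partner had 77, 43 and 43 against 68, 18 and 66, and the low value of 18 in DMSO replicate 2 made that library's ratio the highest at 419%. The log2 change was -2.54 (SE 0.42, adjusted p = 0.73 by edgeR). The 4 transcripts had 103, 102, 99 and 89 counts in all and their lead introns are 10, 12 or 15 of 15. They had similar counts in each library, and the spans of 3 of them overlap on the chromosome. The sum may thus hold the same molecules more than once, which would raise the ratios and was not tested. Each of the 4 reached 20 counts only through the libraries labelled DMSO.

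PWWP3A, a chromatin-associated protein, had the smallest p among the lower ratios. Its 2 retained-intron transcripts together had 36, 17 and 14 counts against 36, 57 and 31, and its partner 15, 7 and 7 against 2, 4 and 3. The log2 change was -2.53 (SE 0.19, adjusted p = 0.099 by edgeR) and rested on a partner with 9 counts in the DMSO group.

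The other 6 genes with a lower ratio were ATP13A3, PCSK5, PFKM, BAZ1B, RNF10 and EEF1D, with log2 changes between -3.22 for PFKM and -1.14 for EEF1D. PFKM, the muscle-type phosphofructokinase of glycolysis, had 5, 1 and 2 counts against 10, 17 and 3, with a partner of 6, 3 and 7 against 2, 2 and 2. With its rarer retained-intron transcripts the sums were 16, 5 and 4 against 10, 19 and 6, which overlapped (16.2 ± 6.95 against 25.5 ± 10.2 CPM, SD, n = 3), and those of RNF10 were 30, 5 and 7 against 17, 25 and 14. BAZ1B, a chromatin remodelling subunit, had 2, 1 and 3 against 9, 11 and 5 beside a partner of 75, 36 and 29 against 29, 50 and 32. Of the 10 genes, 6 had a retained-intron or coding count of 3 or less in at least 1 library.

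Among the higher ratios PSMA1, a subunit of the 20S proteasome, had 10, 4 and 6 retained-intron counts against 1, 1 and 1, beside a partner of 37, 17 and 18 against 39, 37 and 30. The log2 change was 3.16 (SE 0.21, adjusted p = 0.099 by edgeR). With 1 count in each DMSO library, this SE is smaller than the counting error. When the rarer retained-intron transcripts of PSMA1 were counted too, the sums were 12, 9 and 14 against 9, 3 and 7, and scaled to library size they overlapped, at 18, 24.8 and 37.5 CPM against 21.6, 5.73 and 18.8. WRN, a RecQ helicase, had 18, 11 and 19 against 4, 6 and 3 with a partner of 41, 22 and 34 against 29, 32 and 26, a log2 change of 1.70 (SE 0.20, adjusted p = 0.34 by edgeR). The WRN transcript reached 20 counts only through the libraries labelled SGC-CLK-1.

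PCBP2, a poly(C)-binding protein and splicing regulator, had the most counts of these genes after KTN1 and TFPI. Its 3 retained-intron transcripts together had 114, 45 and 35 counts against 25, 27 and 14, and its partner 116, 56 and 55 against 67, 71 and 64. The ratio was 98.3%, 80.5% and 64.0% against 37.8%, 38.5% and 22.5%, without overlap, and the log2 change was 1.38 (SE 0.26, adjusted p = 0.92 by edgeR). In ENST00000547987, 681 bases long, the RNA ends in intron 10 of 13.

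CLK4, 1 of the kinases that the compound is named for, had 28, 18 and 20 retained-intron counts against 21, 29 and 16, and 4, 5 and 2 coding counts against 11, 12 and 8. The retained-intron counts overlapped between the labels, while each coding count under SGC-CLK-1 was below each under DMSO, with ratios of 633%, 336% and 820% against 187%, 236% and 194% and a log2 change of 1.46 (SE 0.32, adjusted p = 0.92 by edgeR). DHX8, a helicase that releases spliced mRNA from the spliceosome, had 67, 38 and 37 against 26, 40 and 15 with a partner of 8, 6 and 2 against 6, 12 and 7. The ribosomal protein gene RPL5 had 48, 25 and 25 against 26, 16 and 28 with a partner of 161, 72 and 92 against 147, 162 and 143. The other genes were STK17A, SGCE, KTN1 and TFPI, with log2 changes between 0.88 for KTN1 and 2.61 for SGCE. With its rarer retained-intron transcripts SGCE had 21, 14 and 15 against 13, 21 and 4. Of these 10 genes, 7 had a count of 3 or less in at least 1 library. The SGCE transcript reached 20 counts only through the libraries labelled SGC-CLK-1. The partners of STK17A, CLK4, TFPI and DHX8 did so only through those labelled DMSO.

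**Figure D3:**
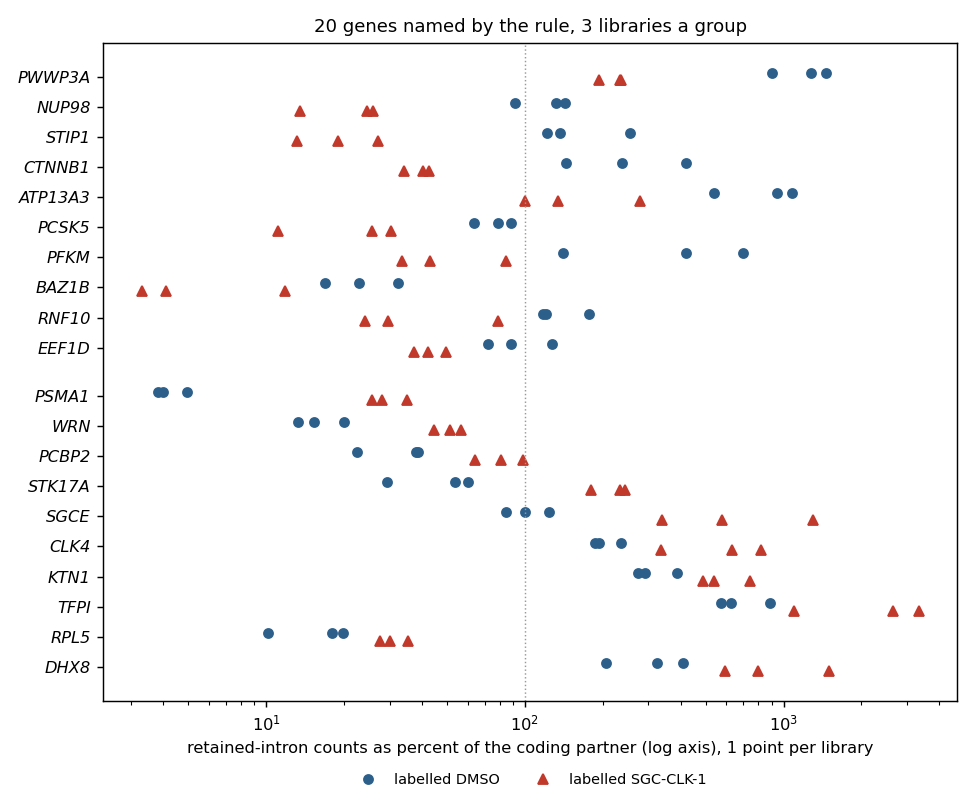
Retained-intron counts as a percent of the coding partner's count (log axis, pseudocount 0.5) in each library for the 10 genes named in each direction, with circles for the DMSO label and triangles for the SGC-CLK-1 label. The 2 groups do not overlap in any row because the rule asked for that, and the dotted line marks a ratio of 100%.

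The level of each transcript was tested as well, by edgeR's quasi-likelihood test across 7840 transcripts that passed a filter on low counts. Only 645 of the 2197 retained-intron transcripts passed that filter, and 1552 did not and are not judged. Of the 645, 43 transcripts in 33 genes changed at an adjusted p of 0.05 (6.67%), against 3.95% of all transcripts tested. With the SGC-CLK-1 label 33 of them, in 23 genes, were lower (background 2.1%) and 10, in 10 genes, were higher (background 1.85%). Since a transcript can pass the filter through the group in which it is high, and transcripts of 1 gene share reads, these counts describe the transcripts tested and not the class. DDX3X gave 6 of the 33 and CTNNB1 gave 4. Of the 43, 15 passed under every alternative that gave an adjusted p, and for the others described below the number of alternatives passed is given, in most cases with the highest adjusted p (edgeR or DESeq2). The count of 43 was 19 without DMSO replicate 1, 28, 21 and 23 without SGC-CLK-1 replicate 1, 2 or 3, and 18 of 500 with DESeq2. The median log2 fold change of the 645 was -0.014, against -0.0058 for all 7840.

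STIP1 ENST00000355603 fell from 376 ± 94.6 to 39.1 ± 9.58 CPM (SD, n = 3, scaled by TMM), that is by 3.19 on the log2 scale (SE 0.26, adjusted p = 8.6e-10 by edgeR), while its partner stood at -0.078 (adjusted p = 0.89 by edgeR). EIF3B, a scaffold subunit of the initiation factor eIF3, had 6, 5 and 7 counts against 40, 61 and 27 on ENST00000468250, which fell by 2.85 on the log2 scale (SE 0.35, adjusted p = 6.2e-06 by edgeR). That transcript is 529 bases long, keeps the 76 bases of intron 7 and ends in an intron. ENST00000429810 of the lncRNA gene ENSG00000290890 on chromosome 16 had 15, 5 and 4 counts against 81, 109 and 112 and has no coding partner. The 4 CTNNB1 transcripts fell by 2.51 to 2.57 on the log2 scale, beside a partner at -0.052 (adjusted p = 0.96 by edgeR). Their counts were alike in each library, so they are not 4 separate observations. NUP98 ENST00000488828 fell by 1.99 (SE 0.47, adjusted p = 0.015 by edgeR), beside a partner at 0.65 (adjusted p = 0.32), and passed under 6 of 10 alternatives (highest 0.11). The transcripts of STIP1, EIF3B, ENSG00000290890 and CTNNB1 passed under all that gave an adjusted p.

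Of the 43, 34 had a coding partner that was tested, and in 12 of these the partner changed too and in the same direction. Over the 820 partners tested, 31 were called (3.78%, 18 lower and 13 higher), and the 12 share 6 partners. These belonged to DDX3X, NUTF2, PLK1, DNAJC2, PNISR and SRSF11. NUTF2, which carries Ran into the nucleus, had 74, 40 and 45 counts on its retained-intron transcript against 134, 143 and 108, and fell by 1.36 on the log2 scale (SE 0.21, adjusted p = 0.00027 by edgeR). Its partner fell by 1.38, and the ratio of the 2 stayed at 96.6% ± 3.13 against 95.3% ± 0.834 (SD, n = 3, log2 change 0.016). PLK1, the polo-like kinase of mitosis, gave -1.11 for the retained-intron transcript and -1.16 for the partner, with ratios of 91.3% ± 4.02 and 89.0% ± 3.26. SRSF11, an SR-related protein, gave -0.80 and -0.82. NUTF2 passed under all 12 alternatives, PLK1 under 9 of 12 (highest adjusted p = 0.13 by edgeR or DESeq2) and SRSF11 under 6 of 12 (0.19), while PNISR passed under 4 of 11 (0.21). In NUTF2, PLK1 and SRSF11 the retained-intron count followed the partner's closely in both groups.

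DDX3X, an RNA helicase with roles in translation, was counted mainly on retained-intron models. All its retained-intron transcripts stood at 167 ± 19 CPM under SGC-CLK-1 and 545 ± 12.3 under DMSO, and all its coding transcripts at 76.0 ± 31.9 and 105 ± 36.3 (SD, n = 3, scaled to library size). Of its 8 retained-intron transcripts with 20 or more counts, 6 fell, by 1.83 to 2.37 on the log2 scale. Of these 6, 5 passed under every alternative that gave an adjusted p and ENST00000646390 under 5 of 10 (highest adjusted p = 0.092 by edgeR or DESeq2). Their lead introns are 1, 2 or 8 of 13 and their spans on the chromosome overlap, so they are not 6 separate observations. The partner, with 62 counts in all, fell by 1.69 (adjusted p = 0.023 by edgeR). The ratio of the retained-intron sum to this partner was 1373%, 685% and 1122% against 1352%, 1344% and 1524%. These ratios overlapped, with a log2 change of -0.37 (SE 0.27, unadjusted p = 0.44 by edgeR).

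Another 22 of the 34 transcripts that changed beside a tested partner did so without a called change of the partner. The 2 fold changes had the same sign in 33 of the 34, NUP98 being the exception, and that of the retained-intron transcript was the larger in 29. The transcripts were chosen for their own change and the partners were not, so that choice favours a larger change in the transcript. DDX3X gave 6 of the 34 and CTNNB1 4, with 1 partner per gene, so these are not 34 separate observations. Transcripts that rose were PCBP2 ENST00000547987 (39, 16 and 12 counts against 5, 9 and 1, log2 fold change 2.02, SE 0.43, adjusted p = 0.0077 by edgeR) and WRN ENST00000521620 (1.80), both beside a flat point estimate for the partner (0.047 and 0.085). CCT6A, a subunit of the chaperonin TRiC, gave 1.18 beside 0.041, and ZNF131, a zinc-finger protein, gave 1.24 beside 0.015. MCM7, a subunit of the replicative helicase, gave 1.02 beside 0.90, and the microtubule-binding EML4 and NAA25 also rose. Outside the 34, the receptor gene ACVR2B and RAB26, whose partners were not tested, rose, as did LRRC37A2, which has no partner. The transcripts of PCBP2, WRN and RAB26 reached 20 counts only through the libraries labelled SGC-CLK-1. Of all the transcripts that rose, LRRC37A2 passed under all 12 alternatives, PCBP2 under 9 of 10 (highest adjusted p = 0.076 by edgeR or DESeq2) and WRN under 5 of 10 (0.17). CCT6A passed under 4 of 11 (highest adjusted p = 0.35 by edgeR or DESeq2), ZNF131 under 4 of 11 (0.31) and MCM7 under 6 of 12 (0.21). ACVR2B, EML4, NAA25 and RAB26 passed under 3 to 6 of 10 to 12. LRRC37A2 ENST00000572638 shares 64.4% of its length with a transcript of LRRC37A, so reads of the 2 genes may be split between them.

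**Figure D4:**
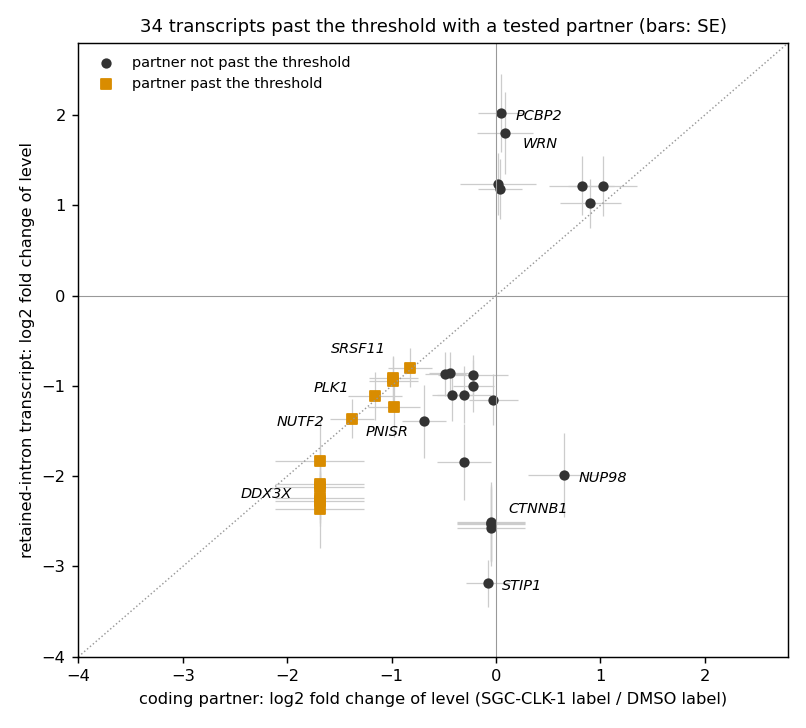
Log2 fold change of level (SGC-CLK-1 label over DMSO label) of the 34 called retained-intron transcripts with a tested coding partner (vertical axis) against that of the partner (horizontal axis), with bars of 1 SE and a dotted line of equal change. Squares, whose partner passed the threshold too, lie near the line or, for DDX3X, below it, STIP1, CTNNB1, PCBP2 and WRN lie far from it near a partner change of 0, and NUP98 lies below 0 at a partner change of 0.65.

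**Figure D5:**
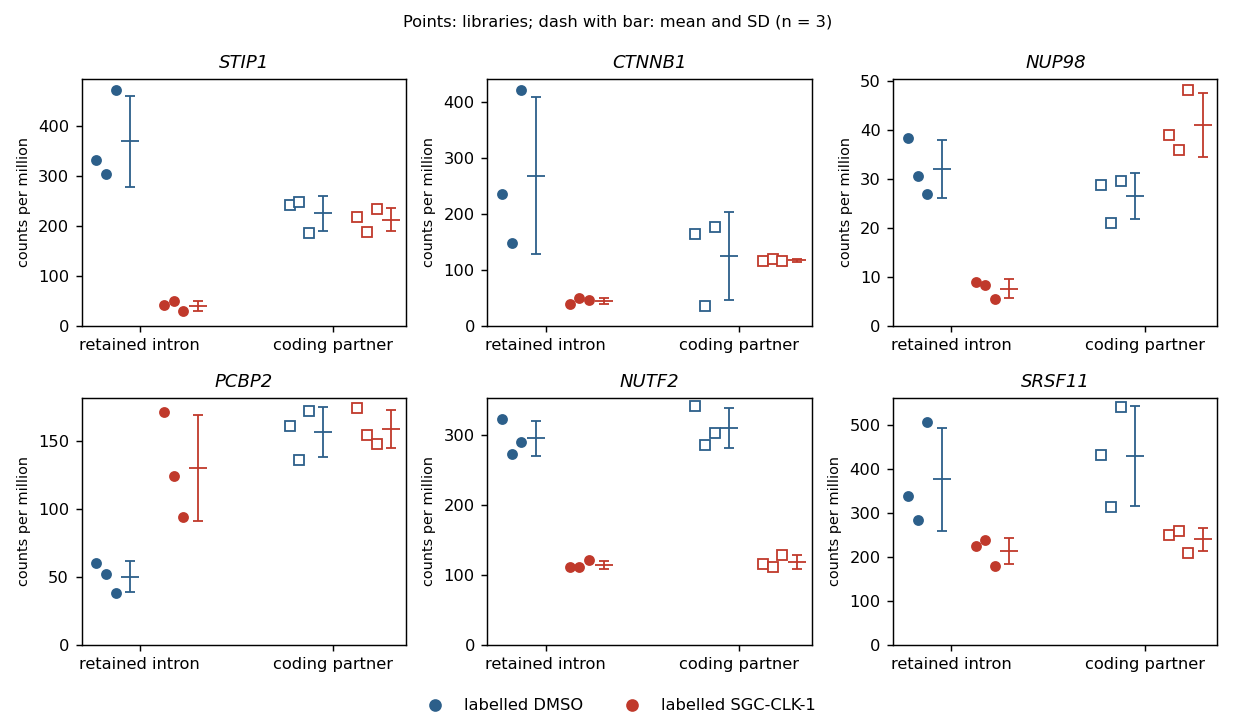
CPM (scaled to library size only) of the summed retained-intron transcripts (filled circles) and of the coding partner (open squares) in each library of 6 genes, with mean and SD (n = 3) beside the points, in blue for the DMSO label and red for the SGC-CLK-1 label. In STIP1, CTNNB1 and NUP98 the retained-intron class is lower with the SGC-CLK-1 label and in PCBP2 higher while the partner overlaps or runs opposite, and in NUTF2 and SRSF11 both move together.

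The list of SR proteins and CLK kinases held 24 genes, of which 15 had a retained-intron transcript with 20 or more counts, 24 transcripts in all. Of the 15 ratios 6 were below and 9 above 0, with a median log2 change of 0.020, and CLK4 alone had an unadjusted p under 0.05 (6.50% of the 1293 genes did). Of its 10 transcripts tested for level, 2 fell, SRSF11 ENST00000484162 and SRSF3 ENST00000620389, beside 6.67% called of all retained-intron transcripts tested and 3.95% of all transcripts. SRSF3, a canonical SR protein, had 40, 10 and 18 counts on that transcript against 39, 39 and 45, a difference of -1.0 on the log2 scale (SE 0.29, adjusted p = 0.044 by edgeR), beside a partner at -0.22 (adjusted p = 0.61). It passed under 5 of 12 alternatives (highest adjusted p = 0.27 by edgeR or DESeq2).

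CLK1 had few counts on retained-intron models, 11, 2 and 5 against 9, 12 and 14, with a coding partner of 20, 8 and 20 against 25, 43 and 26. The log2 change of its ratio was 0.020 (SE 0.86), so a change of a few fold in either direction was not detectable at this depth. In level the partner stood at -1.03 on the log2 scale (adjusted p = 0.056 by edgeR). Its 2 transcripts each hold 2 whole introns of 12, the longest being intron 3 in ENST00000473565 and intron 7 in ENST00000461981.

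The rest of the list gave values without a call. SRSF2 had 56, 17 and 9 retained-intron counts against 22, 16 and 29 (log2 change of the ratio -0.45). TRA2A, which binds exonic enhancers, had 30, 11 and 15 against 12, 19 and 4 (0.98), and its paralog TRA2B had 74, 38 and 27 against 49, 43 and 31 (-0.14). SON, a large protein of nuclear speckles, had 10, 4 and 4 against 1, 3 and 3 (0.83) and its groups did not overlap. SRSF10 stood at -0.59, DYRK1A at -1.17, SRRM2 at -0.66, and SRSF4, SRSF9, SRPK1, SRRM1 and SRSF11 between 0.014 and 0.19.

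Among hnRNPs and other splicing regulators, 15 of 21 ratios were below 0 and PCBP2 was the 1 gene with an unadjusted p under 0.05, with a median of -0.20. HNRNPU and HNRNPH1, both RNA-binding proteins of the nucleus, had the most retained-intron counts (1222 and 1043), and log2 changes of -0.15 and -0.12. The HNRNPU transcripts with 310, 218, 211, 41 and 36 of these counts held no sequence that was intronic in the partner. Of 13 core spliceosome genes 3 had an unadjusted p under 0.05, against 6.50% of the 1293 genes, with a higher ratio in each (DHX8, DDX46 and U2AF1), and DHX8 and DDX46 also stand in the list of RNA helicases, where 3 of 19 passed that level. Translation factors had 4 of 22, all lower (EEF1D, EIF3B, EEF2 and EIF3C). Of their 13 transcripts tested for level, 2 fell, those of EEF1D (7 of 12 alternatives) and EIF3B, beside 6.67% called over the class. ENST00000565932 and ENST00000566086 of EIF3C share 51.5% and 94.6% of their length with a transcript of EIF3CL, so reads may be split between these genes.

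The RNA helicases had 6 level calls among 17 transcripts tested, those of DDX3X alone, and chaperones and co-chaperones had 6 of 16 from 5 genes, beside 6.67% called of all retained-intron transcripts tested and 3.95% of all transcripts. Of the 16 chaperone transcripts tested, 5 fell (STIP1, HSPD1, HSP90B1 and 2 of DNAJC2) and 1 rose (CCT6A), while the 21 ratios were split 10 to 11 around a median of 0.014. HSP90B1, the HSP90 of the endoplasmic reticulum, fell on ENST00000640977, which ends in intron 7 of 17, by 0.86 on the log2 scale (SE 0.23, adjusted p = 0.030 by edgeR). Of the 6 chaperone calls, only that of STIP1 passed under every alternative, and the other 5 passed under 4 to 7 of 11 or 12.

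Cytosolic ribosomal proteins had the most transcripts of any list, 84 in 47 genes, and none of the 30 tested for level changed (0 by edgeR's test), beside 6.67% called of all retained-intron transcripts tested and 3.95% of all transcripts. Their ratios were split 22 to 25 with a median of 0.018, and RPL22, RPL5 and RPSA had an unadjusted p under 0.05. RPL4, with 1978 retained-intron counts, had a ratio of 121% ± 2.91 against 123% ± 7.99 (SD, n = 3). The ubiquitin and proteasome list had 1 of 41 ratios at an unadjusted p under 0.05 (PSMA1), DNA replication and repair 1 of 17 (XRCC5), cell cycle and mitosis 2 of 12 (SMC4 and SMC6, both higher), nuclear transport 2 of 15 (NUP98 and KPNB1), oxidative phosphorylation 1 of 18 (NDUFA7), glycolysis 1 of 7 (PFKM), aminoacyl-tRNA synthetases with ATF4 targets 1 of 10 (YARS1) and zinc-finger genes 4 of 32, while chromatin regulators (25 genes) and the cytoskeleton (13 genes) had none. No ratio of any list passed the adjusted threshold, and over the 1293 genes the same unadjusted level was reached by 6.50%.

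For the most counted genes of each of these lists not described so far, no ratio passed the test after adjustment (edgeR). RPL10 had 77.8% ± 0.608 against 76.3% ± 5.26 of its partner's count and EEF1A1, the elongation factor that brings tRNA to the ribosome, 42.2% ± 4.34 against 45.1% ± 2.03 (SD, n = 3). H2AZ1, a histone variant, stood at 42.2% ± 5.75 against 41.3% ± 5.97. The export receptor XPO1, the nucleoporin NUP58, the proteasome subunit PSMB4, UBE2V2, ATP5PD and ATP5MC2 of the ATP synthase, the glycolytic enolase ENO1, LDHB, ARID4B, the helicase DDX39A, U2SURP and the tRNA synthetases LARS1 and CARS1 had log2 changes of the ratio between -1.06 (NUP58) and 0.37 (CARS1), none with an unadjusted p under 0.05. Among these the ratios of NUP58 and U2SURP were lower in each library labelled SGC-CLK-1 than in each DMSO library, and those of the others overlapped, beside 12% of all ratios and 15.9% of the retained-intron ratios without overlap. XRCC5, a subunit of the Ku heterodimer of end joining, had 64, 47 and 39 counts against 55, 81 and 47 beside a partner of 125, 90 and 93 against 84, 120 and 65. Its ratios of 48.7% ± 5.62 and 68.6% ± 3.52 did not overlap (log2 change -0.48, SE 0.09, unadjusted p = 0.015). SMC4, a condensin subunit, stood at 106% ± 10.2 against 82.4% ± 3.70 (log2 change 0.34, SE 0.08, unadjusted p = 0.025), and its partner fell in level by 0.78 on the log2 scale (adjusted p = 0.028 by edgeR). The retained-intron count of ZNF131 was 86, 42 and 41 against 22, 49 and 16 beside a partner of 16, 19 and 11 against 15, 19 and 10 (log2 change of the ratio 0.89, SE 0.43), and ZNF224, with 0 to 3 coding counts in each library, was not tested against a partner.

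By structure, ratios were fitted once more with 1 line per transcript, where 137 of 1774 (7.72%) had an unadjusted p under 0.05 against 3.75% of all 11820 fitted and none passed the adjusted threshold. The share was 11% for transcripts that end in an intron, 6.63% for those that begin in one and 6.72% for those with a whole intron. By 3′ end it was 5.02% in the last exon, 11.7% in an intron and 15.4% in an earlier exon. The median log2 change lay between -0.15 (ends in an earlier exon) and 0.056 (ends in an intron) in these groups. Of the transcripts tested for level, 7 of 62 with the first intron as lead, 2 of 34 with the last and 30 of 427 with a middle one were called, beside 39 of all 541 tested with a partner and 3.95% of all transcripts, and 4 of the 7 are DDX3X transcripts with intron 1 in common.

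The transcripts with the most counts hardly differed from their partners. ACTB ENST00000462494, of cytoplasmic actin, had 677, 471 and 397 counts against 430, 399 and 513, which was 98.8% ± 0.513 and 98.1% ± 1.32 of the coding count (SD, n = 3). TUBA1B ENST00000332858, of an α-tubulin, stood at 99.3% ± 2.69 and 98.9% ± 0.542, and TBL1XR1 ENST00000474363, of a corepressor subunit, at 101% ± 0.786 and 95.5% ± 2.66. In all, 30 of the 1774 transcripts were within 10% of the partner's count in each of the 6 libraries. A median of 89.3% of their bases lay in partner exons, against 53.6% for the rest, and 27 of them shared the partner's last exon. The alignments kept secondary hits, so the same molecules can stand under both models. TMEM45A ENST00000489060 (2677 counts) and ADAM32 ENST00000518259 (1834) had a high count with no coding partner. Of the 2197 transcripts, 73 shared 50% or more of their length at 90% identity with a transcript of another gene, and for 39 of these the other transcript had more counts. EEF1G ENST00000525340, of an elongation factor subunit, is an example, since 99.8% of its length is shared with a readthrough model.

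The count minimum cut a smooth range, in which the median transcript had 40 counts and 397 had 100 or more. Just inside it, with 20 counts each, stood BTN3A1 ENST00000082468, RABGAP1 ENST00000317419 and SSBP3 ENST00000371320. PHF20L1 ENST00000315808, KLHL36 ENST00000325279 and DHRS7B ENST00000346603 stood just outside, with 19 each.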

How the data were processed

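The authors called bases with Guppy, aligned reads to the human transcriptome with minimap2 (2.22 in the submitters' processing notes), kept secondary alignments, collapsed UMIs and deposited 1 count per transcript and library, without normalization. Which of their 2 deduplication methods made the values is not given in the sources used here. Transcripts were matched without version to GENCODE 44 (GRCh38), a later release than the study's Ensembl 98. Transcripts absent from a library were given 0.

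Each ratio was fitted in edgeR 4.0.16 (R 4.3.3) on 12 columns, the counts of class and partner in 6 libraries, with library, kind and their interaction with the label as terms. Levels were tested after filterByExpr with TMM scaling. All p-values were adjusted by Benjamini-Hochberg over all rows. Printed ratios use a pseudocount of 0.5. Each printed SE was derived from the F statistic of the edgeR test and is not a separate estimate of counting error. limma 3.58.1, DESeq2 1.42.0 and other filters, partners, scalings and library sets were alternatives. In simulated data with 200 changes of a fold of 4, the level test recovered 97.5%, with 5.34% of calls wrong among 7832 transcripts. The ratio test recovered 45.5% of its 200, with 3.19% wrong among 7032 ratios. The simulated rows differed between these tests, so their recoveries cannot be compared. The 97.5% does not describe the retained-intron class, since 1552 of its 2197 transcripts did not pass the filter of the level test. Both recoveries hold for simulated counts only.

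The transcripts, gene lists and tests were chosen with earlier results of these data known. Genes were named as the 10 per direction with the largest called ratio change, filled up by smallest p among ratios without overlap, the 5 transcripts with the most counts, all SR and CLK genes, the 2 genes with the most counts in each other list, and 3 transcripts on each side of the count minimum. Level calls named beyond these were chosen after their values were seen.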

Additional observations from a re-analysis of the deposited data

How the results depend on the processing

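The ratio call stayed at 0 genes in the alternatives other than the 2 added after the data were seen, which called 3 transcripts (diffSpliceDGE) and 2 genes (retained-intron ratios fitted alone). The number at an unadjusted p under 0.05, 84 of 1293, was 38 of 454 with 60 or more counts in class and partner, 168 and 173 with limma-trend at a pseudocount of 0.5 and 2, 137 of 1774 with 1 line per transcript, and 61 to 75 with 1 library left out. No named ratio change reversed. The number of levels called, 43 (33 lower and 10 higher), was 21 (14 lower) of 361 with 10 or more counts in every library, 18 (17 lower and 1 higher) of 500 with DESeq2, and 19 to 43 (16 to 32 lower, 3 to 11 higher) with 1 library left out. Without a filter it was 29 of 2197, with 3 higher. Of the 43, 15 transcripts, in ATP13A3, CTNNB1, DDX3X, EIF3B, ENSG00000290890, LRRC37A2, NUTF2 and STIP1, passed wherever an adjusted p was given. Those of CTNNB1, DDX3X, EIF3B and ENSG00000290890 had under 10 counts in at least 1 library. The filter of 10 or more in every library therefore left them out. All 43 remained called with RLE scaling, and 39 of them with scaling to library size only. The share of counts differed by -0.14 percentage points, by -0.18 to -0.10 with 1 library left out, and by 0.16 with every retained-intron transcript counted. The cause of these differences was not tested. Replicate numbers were not taken as pairs, since deviations of libraries with the same number correlated at 0.059, 0.093 and -0.0018. With the replicate number as a block 0 ratios (79 at an unadjusted p under 0.05) and 52 levels were called, and all of the 43 were among these. The median transcript had 40 counts over 6 libraries, which limits the precision of each value.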
